A study of Homo sapiens with 12 samples.

Results

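The genes described here are the human heat shock proteins, their J domain partners and the BAG cochaperones. Members were chosen by gene symbol: HSPA, HSPB, HSPD, HSPE, HSPH and HSP90 genes, the DNAJA, DNAJB and DNAJC genes, and BAG1 to BAG5, without pseudogenes. The rule found 72 genes among the 18417 genes measured. Classed by symbol, they comprise 27 DNAJC, 12 DNAJB and 4 DNAJA genes, 12 HSP70 genes (HSPA) and 6 small heat shock genes. The others are 5 BAG genes, 3 HSP90 genes, 2 mitochondrial chaperonin genes and 1 HSP110 gene (HSPH1).

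Chaperones bind proteins that are unfolded or not yet folded and keep them from aggregating. HSP70 proteins do so in an ATP-driven cycle: a J domain protein (DNAJ) brings the client and triggers ATP hydrolysis, and an exchange factor of the BAG or HSP110 type releases the nucleotide and with it the client. HSP90 takes over partly folded kinases and receptors, JAK2 among them. Heat shock factors such as HSF1 switch on the inducible members by binding heat shock elements, arrays of the letters GAA and TTC in turn.

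Both cell lines carry the JAK2V617F mutation, the activating kinase change of myeloproliferative neoplasms, and are labelled as erythroleukemia cells. HEL and UKE1 cells were kept for 6 h with 250 nM ITF2357 (givinostat), an inhibitor of histone deacetylases, and each was set against cells of the same line kept for 6 h without it. Both media held 10% fetal calf serum, and UKE1 medium also held 10% horse serum and 10 µM hydrocortisone, so that line and medium cannot be told apart. Each of the 4 groups had 3 GeneChip Gene ST arrays, 12 in all, named as independent triplicates in the series' design text. The labels do not say whether the triplicates were separate cultures or passages, so p-values reflect only how far these samples scatter, which may be technical.

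Values are log2 RMA signals, which carry no detection flag, and with 3 arrays a group the precision is limited. Arrays of a group correlated with each other at 0.994 to 0.996 over all genes, treated with untreated arrays of the same line at 0.981 to 0.985, and HEL with UKE1 arrays at 0.928 to 0.943. Of 8 erythroid markers measured, 5 lay above log2 8 in both HEL groups and 1, the transferrin receptor TFRC, in both UKE1 groups. Of 5 T cell markers, 3 (CD3D, CD3E and CD3G) lay above log2 8 in both UKE1 groups and 0 in HEL. CD8A and TRAT1 lay below log2 8 in every group. Of 6 megakaryocyte markers, 4 lay above log2 8 in treated HEL, 6 in untreated HEL and 3 in both UKE1 groups. Of 6 myeloid markers, 1 did in treated HEL, and 2 did in untreated HEL and in both UKE1 groups. Of 3 B cell markers, 1, CD22, did in treated UKE1 alone. Of 4 epithelial markers, 1, KRT8, did in all groups but treated HEL, and of 4 fibroblast markers 0 did. The summed linear signal of the T cell markers was 1590 to 1627 on treated and 1996 to 2012 on untreated UKE1 arrays, against 114 to 134 on treated and 118 to 133 on untreated HEL arrays. The part of this difference in the chaperone results was not tested. In bulk samples, fewer cells of a type and less RNA per cell cannot be told apart.

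RefSeq promoter windows (250 bases before to 50 after the gene start, GRCh38.p14) were matched for 65 of the 72 members and searched on both strands for heat shock element letters. The 2-unit form was GAANNTTC or TTCNNGAA, and the 3-unit form adds a further GAA or TTC after 2 free bases, so that each 3-unit match also holds overlapping 2-unit matches. The stretches below are from HSPA8, HSPA6 and DNAJB6, which hold the 3-unit form, and from HSPB1 and BAG2, which hold the 2-unit form and changed differently in the lines. Other windows with a match, that of DNAJA1 among them, are not shown. Genes that changed differently in the lines but hold no match are not shown either. Capitals mark the matched letters, and each stretch is written 5′ to 3′ on the strand of the gene.
HSPA8 (chr11:123062159-123062386, minus strand): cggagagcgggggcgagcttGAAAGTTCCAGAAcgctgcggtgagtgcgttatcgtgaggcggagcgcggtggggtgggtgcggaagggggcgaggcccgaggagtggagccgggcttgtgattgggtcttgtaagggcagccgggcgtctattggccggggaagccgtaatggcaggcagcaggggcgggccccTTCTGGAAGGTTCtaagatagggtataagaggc
HSPA6 (chr1:161524446-161524498, plus strand): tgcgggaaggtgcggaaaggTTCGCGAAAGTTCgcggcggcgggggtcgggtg
DNAJB6 (chr7:157336853-157336905, plus strand): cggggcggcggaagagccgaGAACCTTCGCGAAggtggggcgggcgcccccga
HSPB1 (chr7:76302471-76302518, plus strand): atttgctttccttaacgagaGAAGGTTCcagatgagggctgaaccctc
BAG2 (chr6:57172182-57172229, plus strand): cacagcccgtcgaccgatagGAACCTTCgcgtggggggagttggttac

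In HSPA8, the gene of the constitutive cytosolic HSC70, the 3-unit form began 230 and again 55 bases before the start. It began 74 bases before the start of HSPA6, a strictly stress-inducible HSP70, and 131 bases before that of DNAJB6, a suppressor of protein aggregation. In DNAJA1 it began 3 bases after the start. The 3-unit form stood in 4 of 65 member windows (6.15%) and in 0.487% of all 27305 windows. The 2-unit form stood in 13 member windows (20%), against 13.7% of all windows. HSPB1 and BAG2 held only the 2-unit form, 182 and 124 bases before the start. Of members that rose with the drug in both lines, 0 of 11 windows held the 2-unit form. Of those that fell in both, 2 of 12 did, and of the other members 11 of 42. The promoter letters CCAAT stood in 24 member windows (36.9%) and in 35.7% of all. A match is a description of letters, and no match says only that they are not in this window.

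In the drug contrast, a gene rose or fell where limma's adjusted p over all 18417 genes was under 0.05. In HEL, 16 of the 72 members rose (against 22.6% of all genes), 22 fell (against 19.9%) and 34 did not pass, a share called of 52.8%, against 42.4% of all genes. The median log2 change was -0.05 over the members and -0.01 over every gene tested. In UKE1, 18 members rose (against 22.0% of all genes), 18 fell (against 22.3%) and 36 did not pass, a share called of 50%, against 44.3%. The median was -0.02 over the members and 0.01 over every gene tested. Treated arrays lay wholly apart from untreated ones for 44 members in HEL (61.1%, against 49.0% of all genes) and for 45 in UKE1 (62.5%, against 53.9%). The shares here and below were not matched for signal level. The highest group mean reached log2 8 for 47 of the 72 members, whereas the array medians over all rows were 6.41 to 6.50. The part of signal level in the shares was not tested.

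Members called in both lines mostly moved the same way. In both lines 13 members rose (18.1%, against 14.0% of all genes), and these were DNAJB1, DNAJB4, DNAJB5, DNAJB11, DNAJC1, DNAJC5, DNAJC12, DNAJC18, DNAJC28, HSPA13, HSPA4L, BAG3 and BAG4. Another 12 fell in both (16.7%, against 12.9%): DNAJA1, DNAJB12, DNAJC2, DNAJC7, DNAJC9, DNAJC11, DNAJC14, DNAJC17, HSPA4, HSPA9, HSPH1 and HSPE1. HSPB1 was the 1 member that passed in opposite directions (1.39%, against 2.10%). In neither drug contrast did 24 members pass (33.3%). The share of all genes that passed in neither follows from the counts called. Of 18417 genes, 7816 were called in HEL and 8160 in UKE1. Among these, 2583 rose in both, 2385 fell in both and 386 passed in opposite directions. Under log2 6 in every group lay 13 members, of which 1, HSPA12A, was called. In HEL 2 members rose by at least 1 on the log2 scale (2.37% of all genes did) and 1 fell by that much (1.36%). In UKE1 2 rose (2.19%) and 1 fell (2.26%) by at least 1.

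**Figure D1:**
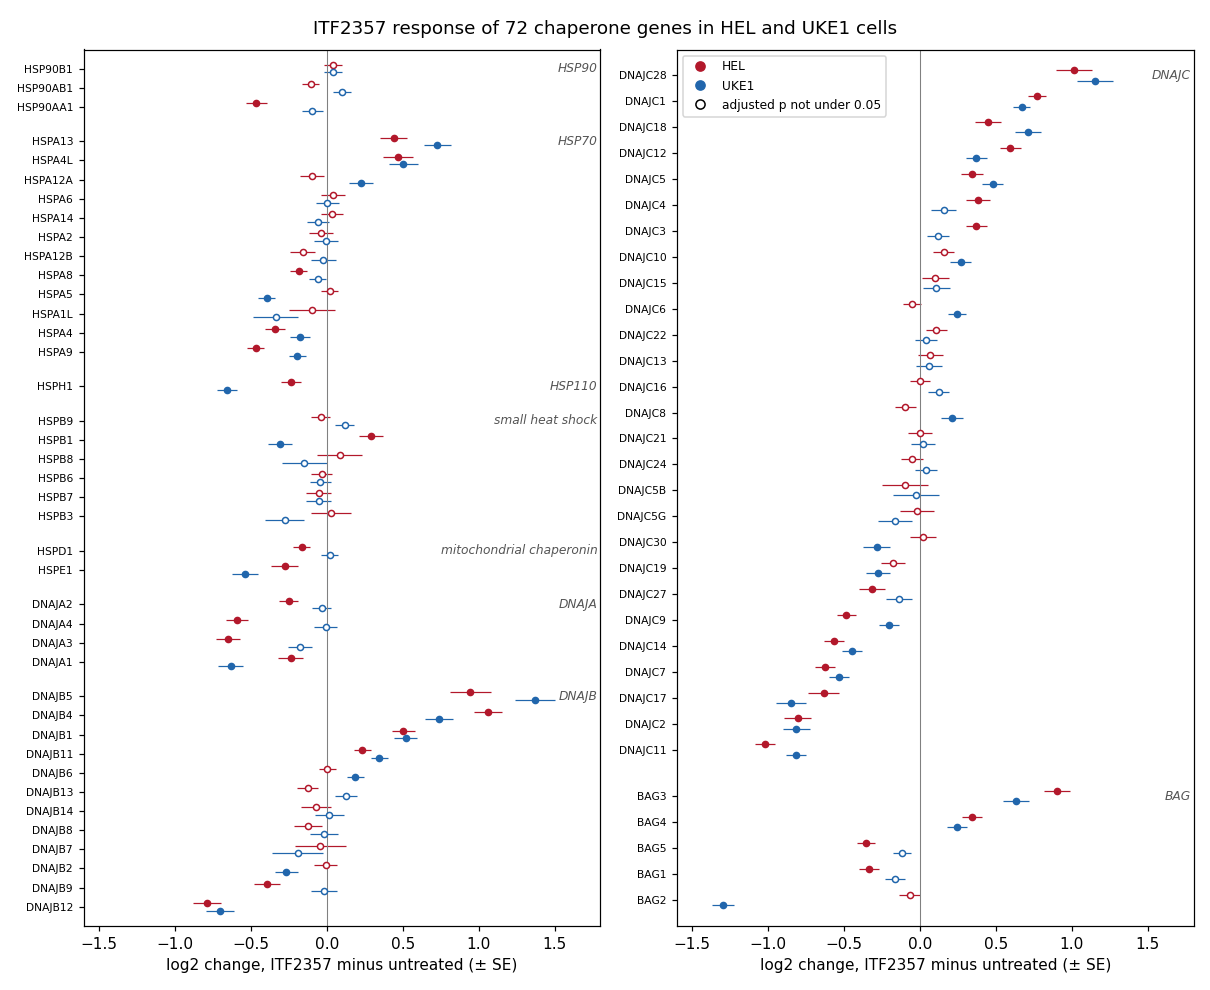
Log2 change with ITF2357 (x axis, treated minus untreated, bars ± SE of the fit) of the 72 members (y axis, by class) in HEL (red) and UKE1 (blue), filled where the adjusted p was under 0.05. DNAJB4, DNAJB5, DNAJC28 and BAG3 lie far to the right and DNAJC11, DNAJC2 and DNAJB12 far to the left in both lines, and BAG2 lies at -1.30 in UKE1 alone.

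HSP90 holds client kinases in a form that can be activated. The cytosolic isoform HSP90AA1 fell in HEL, where the treated arrays read 11.73, 11.88 and 11.73 and the untreated arrays 12.32, 12.29 and 12.12. All treated values lay below all untreated ones, a log2 change of -0.47 (SE 0.0684, 1.38-fold lower, adjusted p = 6.77e-05). In UKE1 HSP90AA1 read 12.23, 12.17 and 12.15 with drug and 12.26, 12.27 and 12.31 without, and the groups did not overlap either, but the change of -0.10 did not pass (adjusted p = 0.298, 95% interval -0.24 to 0.05). The second cytosolic isoform, HSP90AB1, changed by -0.11 in HEL (interval -0.23 to 0.02) and 0.10 in UKE1 (interval -0.02 to 0.22), and neither passed (adjusted p = 0.157 and 0.178). HSP90B1, the isoform of the endoplasmic reticulum, changed by 0.04 in HEL and 0.04 in UKE1 (adjusted p = 0.616 and 0.629), with intervals within 0.17 of no change on either side.

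The 12 HSP70 genes were classed by the symbol HSPA, so they include HSPA4 and HSPA4L, which are of the HSP110 type. Of these 12, 2 rose and 3 fell in HEL, and 3 rose and 3 fell in UKE1. The share called was 41.7% in HEL, against 42.4% of all genes, and 50% in UKE1, against 44.3%. HSPA8, the constitutive HSC70 that serves most cytosolic folding, read 13.55, 13.63 and 13.56 in treated HEL, against 13.80, 13.74 and 13.76 in untreated HEL. The groups did not overlap, and it fell by 0.19 on the log2 scale (SE 0.0540, 1.14-fold, adjusted p = 0.0121), a call that was lost when the HEL arrays were fitted alone (adjusted p = 0.0519). In UKE1 it read 13.36, 13.30 and 13.31 with drug and 13.38, 13.38 and 13.39 without. These groups did not overlap either, but the change of -0.06 did not pass (adjusted p = 0.412). HSPA6, whose window holds the 3-unit element, read 7.68, 7.55 and 7.60 in treated HEL, against 7.56, 7.66 and 7.48 in untreated HEL. On this row of HSPA6 alone, the changes were 0.04 in HEL (interval -0.13 to 0.21) and 0.00 in UKE1 (interval -0.16 to 0.17). The treated and untreated arrays overlapped, and neither change passed. A row that HSPA6 shares with HSPA7 is given in the closing section.

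HSPA9 (mortalin) is the HSP70 of the mitochondrial matrix. It read 11.01, 11.04 and 10.99 in treated HEL, against 11.51, 11.48 and 11.46 in untreated HEL, with no overlap, and fell by 0.47 (SE 0.0544, 1.38-fold, adjusted p = 7.52e-06). The UKE1 arrays read 11.49, 11.51 and 11.44 with drug and 11.72, 11.64 and 11.65 without, again with no overlap, and fell by 0.19 (adjusted p = 0.00935). HSPA5 (BiP), the HSP70 of the endoplasmic reticulum, read 12.46, 12.43 and 12.50 in treated HEL, against 12.43, 12.47 and 12.43 in untreated HEL, where the groups overlapped (change 0.02, adjusted p = 0.839). In UKE1 HSPA5 fell to 11.52, 11.52 and 11.49 with drug, against 11.95, 11.83 and 11.92 without, a log2 change of -0.39 (SE 0.0560, adjusted p = 4.71e-05). HSPA13, a microsomal HSP70 relative, rose in both lines and its groups overlapped in neither. It read 11.02, 11.06 and 10.90 in treated HEL, against 10.68, 10.63 and 10.35 in untreated HEL, a change of 0.44 (adjusted p = 0.000997). It read 10.15, 10.16 and 10.00 in treated UKE1, against 9.37, 9.47 and 9.29 in untreated UKE1, a change of 0.73 (SE 0.0888, 1.65-fold, adjusted p = 1.15e-05).

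The exchange factors of the HSP110 type moved apart. HSPH1 (HSP110 or HSP105) fell to 9.92, 9.94 and 9.94 in treated UKE1, against 10.59, 10.56 and 10.60 in untreated UKE1, a change of -0.65 (SE 0.0655, 1.57-fold lower, adjusted p = 1.75e-06). In HEL it read 10.60, 10.74 and 10.52 with drug and 10.80, 10.93 and 10.82 without, without overlap, and fell by 0.23 (adjusted p = 0.0101), a call that was lost without untreated HEL replicate 2 (adjusted p = 0.0501). HSPA4, its close relative, fell by 0.34 in HEL (treated 9.74, 9.97 and 9.87, untreated 10.20, 10.24 and 10.17, adjusted p = 0.000635). The smaller change of -0.17 in UKE1 (adjusted p = 0.0420) was lost without any 1 of the 6 UKE1 arrays (adjusted p = 0.0548 to 0.128) and under quantile normalization or with every row of the table tested. HSPA4L, the third of the type, rose instead. It read 7.68, 7.72 and 7.72 in treated HEL, against 7.26, 7.39 and 7.06 in untreated HEL (0.47, SE 0.0972, adjusted p = 0.00121), and 5.78, 5.72 and 5.76 in treated UKE1, against 5.43, 5.03 and 5.29 in untreated UKE1 (0.50, adjusted p = 0.000660). Both UKE1 groups of HSPA4L lay under log2 6, so the size of that change is uncertain.

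HSPA12A, a distant HSP70 relative of low signal, changed by 0.23 in UKE1 (adjusted p = 0.0308). This call was lost without treated UKE1 replicate 2 or 3 or untreated UKE1 replicate 2 (adjusted p = 0.0571 to 0.134) and under 4 other settings. HSPA14, which pairs with DNAJC2 at the ribosome, changed by 0.03 in HEL and -0.06 in UKE1, and neither passed. HSPA1L, HSPA2 and HSPA12B passed in neither line. The inducible HSP70 genes HSPA1A and HSPA1B share all of their rows and are no members here; their values by array are given in the closing section.

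The mitochondrial chaperonin HSPD1 (HSP60) and its lid HSPE1 (HSP10) form a folding chamber in the matrix. HSPE1 read 7.52, 7.49 and 7.60 in treated UKE1, against 8.05, 8.28 and 7.91 in untreated UKE1, and fell by 0.54 (SE 0.0886, adjusted p = 0.000173). In HEL it read 7.76, 7.75 and 7.89 with drug and 8.12, 8.15 and 7.97 without, a change of -0.28 (adjusted p = 0.0211) that was lost without replicate 1 or 2 of either HEL group (adjusted p = 0.0625 to 0.0755). HSPD1 fell by 0.16 in HEL (treated 11.47, 11.49 and 11.42, untreated 11.66, 11.63 and 11.58, adjusted p = 0.0288). That call was lost without treated HEL replicate 1 or 3 or untreated HEL replicate 1 or 2 (adjusted p = 0.0604 to 0.0843), with quantile normalization or median centring and with the HEL arrays alone. In UKE1 the change was 0.02 (adjusted p = 0.816, interval -0.10 to 0.14).

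Small heat shock proteins hold unfolded proteins without using ATP. Of the 6 measured, HSPB1 alone was called in a drug contrast. That was 16.7% in each line, against 42.4% of all genes in HEL and 44.3% in UKE1. HSPB1 (HSP27) read 8.59, 8.34 and 8.63 in treated HEL, against 8.18, 8.26 and 8.27 in untreated HEL. The groups did not overlap, and it rose by 0.29 (SE 0.0784, 1.22-fold, adjusted p = 0.00825). In UKE1 it read 11.25, 11.41 and 11.28 with drug and 11.67, 11.58 and 11.60 without, again with no overlap, and fell by 0.31 (1.24-fold, adjusted p = 0.00543). HSPB3, HSPB7, HSPB8 and HSPB9 lay under log2 6 in every group. HSPB8, the partner of BAG3 in selective autophagy, changed by 0.08 in HEL and -0.15 in UKE1, and neither passed.

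The 4 DNAJA genes encode the J proteins most like the bacterial type. All 4 fell in HEL (against 19.9% of all genes) and 1, DNAJA1, fell in UKE1 (against 22.3%). DNAJA3 (TID1), the mitochondrial J protein that works with HSPA9, read 8.40, 8.34 and 8.64 in treated HEL, against 9.12, 9.08 and 9.13 in untreated HEL. It fell there by 0.65 (SE 0.0768, 1.57-fold, adjusted p = 8.76e-06), and in UKE1 the change was -0.18 (adjusted p = 0.0822). DNAJA4 read 8.22, 8.16 and 8.26 in treated HEL, against 8.89, 8.82 and 8.71 in untreated HEL, with no overlap, and fell by 0.59 (adjusted p = 1.41e-05). In UKE1 DNAJA4 read 5.74, 5.62 and 5.65 with drug and 5.61, 5.61 and 5.82 without, under log2 6, and changed by -0.01 (adjusted p = 0.946). DNAJA1, a main cytosolic partner of HSC70, read 8.81, 8.81 and 8.64 in treated UKE1, against 9.26, 9.54 and 9.35 in untreated UKE1, and fell by 0.63 (1.55-fold, adjusted p = 2.19e-05). Its fall of 0.24 in HEL (adjusted p = 0.0319) was lost without treated HEL replicate 1 or 3 or untreated HEL replicate 1 (adjusted p = 0.0722 to 0.129), with median centring and with every row tested. DNAJA2 fell by 0.25 in HEL (adjusted p = 0.00414) and changed by -0.03 in UKE1 (adjusted p = 0.716).

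Among the 12 DNAJB genes, 4 rose and 2 fell in HEL, and 5 rose and 2 fell in UKE1. The share called was 50% in HEL, against 42.4% of all genes, and 58.3% in UKE1, against 44.3%. DNAJB1, DNAJB4 and DNAJB5 are closely related cytosolic J proteins of the HSP40 type, and all rose in both lines without overlap between treated and untreated arrays. DNAJB4 read 9.59, 9.71 and 9.67 in treated HEL, against 8.85, 8.46 and 8.48 in untreated HEL, a change of 1.06 (SE 0.0925, 2.08-fold, adjusted p = 5.43e-07). In UKE1 it read 9.36, 9.34 and 9.46 with drug and 8.62, 8.72 and 8.60 without, a change of 0.74 (1.67-fold, adjusted p = 1.48e-05). Every treated array of both lines read higher for DNAJB4 than every untreated one. DNAJB5 read 7.70, 7.60 and 7.86 in treated HEL, against 6.74, 6.87 and 6.71 in untreated HEL, a change of 0.95 (adjusted p = 4.53e-05). The UKE1 arrays read 7.42, 7.32 and 7.36 with drug and 5.76, 5.83 and 6.41 without, a change of 1.37 (SE 0.133, adjusted p = 1.34e-06). Untreated replicates 1 and 2 lay under log2 6, so no fold is given. Untreated UKE1 replicate 3 lay above the other untreated UKE1 arrays for DNAJB5 and still below every treated one.

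DNAJB1, the inducible HSP40, read 10.95, 10.82 and 11.07 in treated HEL, against 10.56, 10.36 and 10.41 in untreated HEL, and rose by 0.50 (SE 0.0744, 1.42-fold, adjusted p = 7.06e-05). In UKE1 it read 10.34, 10.34 and 10.27 with drug and 9.82, 9.84 and 9.74 without, and rose by 0.52 (adjusted p = 5.17e-05). Its HSP70 partner HSPA8 and the inducible HSPA6 were called higher in neither line, as given above. All 5 rows shared by the inducible HSP70 genes HSPA1A and HSPA1B rose in both lines. The rises were 0.73 to 0.80 in HEL and 0.95 to 1.04 in UKE1 (limma over all 33297 rows, largest adjusted p 5.17e-05 and 4.91e-06). These rows read the same genes, and 1 pair of them is identical, so they are not independent measurements. DNAJB11 (ERdj3), a J protein of the endoplasmic reticulum, rose by 0.23 in HEL and 0.35 in UKE1 (adjusted p = 0.00285 and 0.000116). DNAJB9 (ERdj4), of the same compartment, fell by 0.39 in HEL (treated 7.31, 7.34 and 7.52, untreated 7.93, 7.68 and 7.75, adjusted p = 0.00214) and changed by -0.02 in UKE1 (adjusted p = 0.889). DNAJB12, anchored in the endoplasmic reticulum membrane, read 6.43, 6.57 and 6.48 in treated HEL, against 7.30, 7.38 and 7.15 in untreated HEL, and 6.54, 6.71 and 6.74 in treated UKE1, against 7.47, 7.45 and 7.16 in untreated UKE1. It fell by 0.79 in HEL and by 0.70 in UKE1 (SE 0.0931 each, adjusted p = 8.94e-06 and 2.45e-05), whereas its relative DNAJB14 changed by -0.07 and 0.02 and passed in neither.

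DNAJB6, with the 3-unit element, changed by 0.19 in UKE1 (adjusted p = 0.0141). That call was lost with median centring and without treated UKE1 replicate 1 or untreated UKE1 replicate 3 (adjusted p = 0.0503 to 0.0626), and in HEL the interval was -0.12 to 0.12. DNAJB2 fell by 0.27 in UKE1 (adjusted p = 0.00944), a call that was lost without treated UKE1 replicate 2 (adjusted p = 0.0547). DNAJB7, DNAJB8 and DNAJB13 lay under log2 6 in every group and passed in neither line.

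**Figure D2:**
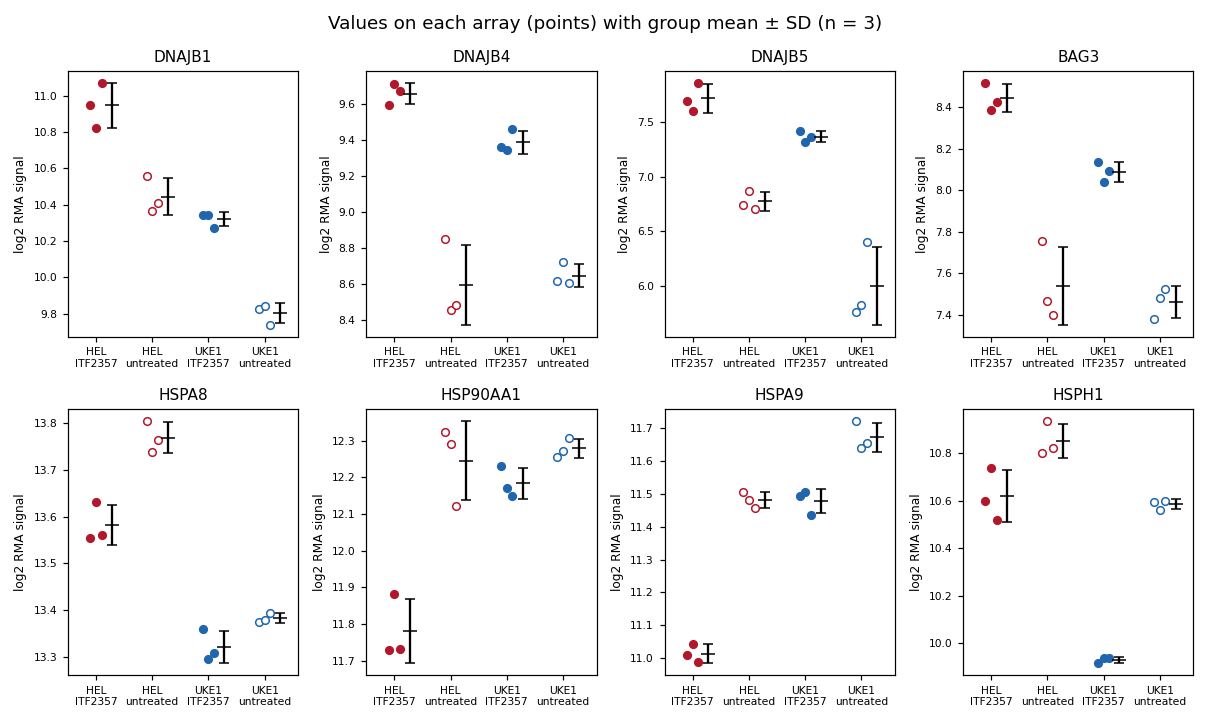
Log2 RMA signal (y axis) on each of the 3 arrays of a group (points, filled for ITF2357) with the group mean ± SD beside them, for 8 members in treated and untreated HEL (red) and UKE1 (blue); y axes differ and do not start at 0. DNAJB1, DNAJB4, DNAJB5 and BAG3 lie higher on all treated arrays of both lines, and HSPA8, HSP90AA1, HSPA9 and HSPH1 lie lower. For HSPA8 and HSP90AA1 the change in UKE1 did not pass.

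The DNAJC class is the largest and the most varied, with J domains fused to many other domains. Of its 27 members, 7 rose and 7 fell in HEL, and 8 rose and 8 fell in UKE1. The share called was 51.9% in HEL, against 42.4% of all genes, and 59.3% in UKE1, against 44.3%. DNAJC28, whose function is little known, read 7.67, 7.75 and 7.65 in treated HEL, against 6.79, 6.81 and 6.42 in untreated HEL, a change of 1.01 (SE 0.119, 2.02-fold, adjusted p = 7.87e-06). The UKE1 arrays read 6.26, 6.20 and 6.07 with drug and 5.16, 5.17 and 4.76 without, a change of 1.15 (adjusted p = 2.33e-06). The untreated UKE1 arrays lay under log2 6, so no fold is given. DNAJC1 (ERdj1), a membrane J protein of the endoplasmic reticulum, read 9.74, 9.67 and 9.80 in treated HEL, against 9.01, 8.93 and 8.97 in untreated HEL, and rose by 0.77 (adjusted p = 1.57e-07). In UKE1 it rose by 0.67 (treated 10.80, 10.75 and 10.74, untreated 10.05, 10.15 and 10.08, adjusted p = 4.93e-07). DNAJC18, DNAJC12 (a cochaperone of the aromatic amino acid hydroxylases) and DNAJC5 (cysteine string protein, of secretory vesicles) also rose in both lines. Their changes were 0.45, 0.59 and 0.34 in HEL and 0.71, 0.37 and 0.48 in UKE1. DNAJC3 (P58IPK) and DNAJC10 (ERdj5) both act in the lumen of the endoplasmic reticulum. DNAJC3 rose by 0.37 in HEL (adjusted p = 0.000660) and changed by 0.12 in UKE1 (adjusted p = 0.209), and DNAJC10 changed by 0.15 in HEL (adjusted p = 0.0976) and rose by 0.27 in UKE1 (adjusted p = 0.00655).

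Another 6 DNAJC genes fell in both lines. DNAJC11, of the mitochondrial contact site complex, read 8.98, 8.94 and 9.10 in treated HEL, against 10.12, 10.01 and 9.95 in untreated HEL, and fell by 1.02 (SE 0.0664, 2.03-fold, adjusted p = 4.05e-08). In UKE1 it read 8.99, 9.02 and 8.88 with drug and 9.76, 9.78 and 9.80 without, and fell by 0.82 (adjusted p = 2.5e-07). DNAJC2 (MPP11), the J protein that sits on the ribosome with HSPA14, read 7.67, 7.93 and 7.72 in treated HEL, against 8.70, 8.59 and 8.45 in untreated HEL, a change of -0.80 (SE 0.0890, 1.75-fold lower, adjusted p = 4.76e-06). The UKE1 arrays read 7.35, 7.39 and 7.35 with drug and 8.02, 8.28 and 8.22 without, a change of -0.81 (adjusted p = 4.02e-06). The treated and untreated arrays of DNAJC2 and DNAJC11 overlapped in neither line. DNAJC17, which is linked to splicing, read 6.39, 6.75 and 6.86 in treated HEL, against 7.37, 7.30 and 7.23 in untreated HEL, and fell by 0.63 in HEL (adjusted p = 0.000126) and by 0.85 in UKE1 (adjusted p = 8.25e-06). DNAJC7 (TPR2), which links HSP70 to HSP90, fell by 0.62 in HEL and by 0.53 in UKE1 (adjusted p = 3.15e-06 and 1.27e-05). DNAJC14, of the endoplasmic reticulum membrane, fell by 0.57 and 0.45 (adjusted p = 8.32e-06 and 7.59e-05). DNAJC9, a histone chaperone, fell by 0.49 in HEL (adjusted p = 2.31e-05). Its fall of 0.20 in UKE1 (adjusted p = 0.0174) was lost without treated UKE1 replicate 2 or untreated UKE1 replicate 3 (adjusted p = 0.0641 and 0.0564).

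The other DNAJC calls were in 1 line each. DNAJC4 rose by 0.38 and DNAJC27 fell by 0.32 in HEL (adjusted p = 0.00134 and 0.00681). DNAJC6 (auxilin, which uncoats clathrin vesicles with HSC70) rose by 0.24 in UKE1 (adjusted p = 0.00379). DNAJC8, of the spliceosome, rose by 0.21 in UKE1 (adjusted p = 0.0237), which was lost without treated UKE1 replicate 1 or untreated UKE1 replicate 1 or 3 (adjusted p = 0.0519 to 0.119), with median centring and with the UKE1 arrays alone. DNAJC19, of the mitochondrial import motor, fell by 0.27 in UKE1 (adjusted p = 0.0114), which was lost without treated UKE1 replicate 3 or untreated UKE1 replicate 2 (adjusted p = 0.0593 and 0.0618) and with the mean of all rows of the gene. DNAJC30, a mitochondrial J protein, fell by 0.29 in UKE1 (adjusted p = 0.0149), which was lost without untreated UKE1 replicate 1 (adjusted p = 0.0558). DNAJC13, DNAJC15, DNAJC16, DNAJC21, DNAJC22, DNAJC24, DNAJC5B and DNAJC5G passed in neither line.

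BAG proteins bind the ATPase domain of HSP70 and release its nucleotide. BAG3, which directs HSP70 clients to autophagy, read 8.52, 8.39 and 8.43 in treated HEL, against 7.75, 7.47 and 7.40 in untreated HEL. It rose by 0.90 (SE 0.0856, 1.87-fold, adjusted p = 1.1e-06) with no overlap. The UKE1 arrays read 8.14, 8.04 and 8.09 with drug and 7.38, 7.48 and 7.53 without, and rose by 0.63 (1.55-fold, adjusted p = 3.17e-05). BAG4 (SODD), which binds death domains of receptors, rose by 0.34 in HEL and 0.24 in UKE1 (adjusted p = 0.000714 and 0.00800). BAG1, a partner of BCL2, read 8.43, 8.45 and 8.54 in treated HEL, against 8.78, 8.82 and 8.82 in untreated HEL, and fell by 0.33 (adjusted p = 0.000694), with a change of -0.17 in UKE1 (adjusted p = 0.0527). BAG5 fell by 0.36 in HEL (adjusted p = 0.000262) and changed by -0.12 in UKE1 (adjusted p = 0.145). BAG2, an inhibitor of the HSP70-linked ubiquitin ligase STUB1 (CHIP), fell in UKE1, where it read 8.06, 8.23 and 8.05 with drug and 9.38, 9.41 and 9.43 without. The change was -1.30 (SE 0.0700, 2.46-fold lower, adjusted p = 6.99e-09). In HEL BAG2 read 8.52, 8.45 and 8.51 with drug and 8.64, 8.62 and 8.44 without, the groups overlapped, and the change was -0.07 (adjusted p = 0.487, interval -0.22 to 0.08).

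The response differed between the lines for 13 of the 72 members, tested as the UKE1 change minus the HEL change, a share of 18.1%, against 23.9% of all genes. The difference was positive for 8 (against 10.1% of all genes) and negative for 5 (against 13.8%). With each array centred on its median, the split was 3 positive and 8 negative, and over all genes the share of positive calls was 30.6%, against 42.2% as deposited. The count of positive calls also depended on single arrays: it was 4 without treated UKE1 replicate 2, 5 without untreated UKE1 replicate 2 and 5 without treated HEL replicate 1.

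Of the 13 calls, 7 held under every setting run. BAG2 differed most, by -1.23 (SE 0.0990, adjusted p = 1.77e-06). HSPB1, which rose in HEL and fell in UKE1, differed by -0.59 (SE 0.111, adjusted p = 0.00155). HSPH1 and HSPA5 differed by -0.42 and -0.41, lower in UKE1 (adjusted p = 0.00463 and 0.00191). DNAJA4 and DNAJA3, which fell in HEL, differed by 0.58 and 0.48 (adjusted p = 0.00110 and 0.00599). DNAJA4 lay under log2 6 in both UKE1 groups, where the values have no call of signal above background, so that a fall there may not be seen. HSP90AA1 differed by 0.37 (SE 0.0968, adjusted p = 0.0134). For HSPA9, the matrix partner of DNAJA3, the difference of 0.27 (adjusted p = 0.0196) was lost with median centring and without treated UKE1 replicate 2 (adjusted p = 0.0517).

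The remaining differences depended on single arrays and on the scaling or the rows tested. With every row of the table tested, the DNAJA1, DNAJB9, DNAJC8 and DNAJC9 calls were lost, and with median centring the DNAJC6, DNAJB9, DNAJC8 and DNAJC9 calls. Quantile normalization also ended the DNAJB9 call, and DNAJB9, like DNAJA4, lay under log2 6 in both UKE1 groups. DNAJA1 differed by -0.39 (adjusted p = 0.0257), which was lost without treated HEL replicate 2, untreated HEL replicate 2 or 3, treated UKE1 replicate 3 or untreated UKE1 replicate 2 (adjusted p = 0.0540 to 0.0668). DNAJC6 differed by 0.29 (adjusted p = 0.0213), which was lost without untreated UKE1 replicate 2 (adjusted p = 0.0580). DNAJB9 differed by 0.37 (adjusted p = 0.0433), DNAJC8 by 0.31 (adjusted p = 0.0367) and DNAJC9 by 0.28 (adjusted p = 0.0367). The DNAJB9 call was lost without any 1 of 8 of the 12 arrays, the exceptions being untreated HEL replicate 2, treated HEL replicate 3, untreated UKE1 replicate 1 and treated UKE1 replicate 1 (adjusted p without the 8 arrays 0.0583 to 0.110). The DNAJC8 call was lost without any 1 of 10 arrays, all but untreated HEL replicate 2 and untreated UKE1 replicate 2 (adjusted p = 0.0508 to 0.0897). The DNAJC9 call was lost without any 1 of 9 arrays, all but untreated HEL replicates 2 and 3 and treated HEL replicate 3 (adjusted p = 0.0503 to 0.0895).

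For DNAJB5, DNAJB4, BAG3, DNAJC28, DNAJC1 and DNAJB1, which rose in both lines, the difference did not pass. It was 0.42 for DNAJB5 (interval 0.02 to 0.83, adjusted p = 0.126), -0.32 for DNAJB4 (interval -0.60 to -0.04, adjusted p = 0.0960) and -0.28 for BAG3 (interval -0.54 to -0.02, adjusted p = 0.121). For DNAJC28 it was 0.13 (interval -0.23 to 0.50), for DNAJC1 -0.10 (interval -0.28 to 0.08) and for DNAJB1 0.01 (interval -0.21 to 0.24). Untreated UKE1 lay under log2 6 for DNAJC28, and on replicates 1 and 2 for DNAJB5, so the size of those rises is uncertain.

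**Figure D3:**
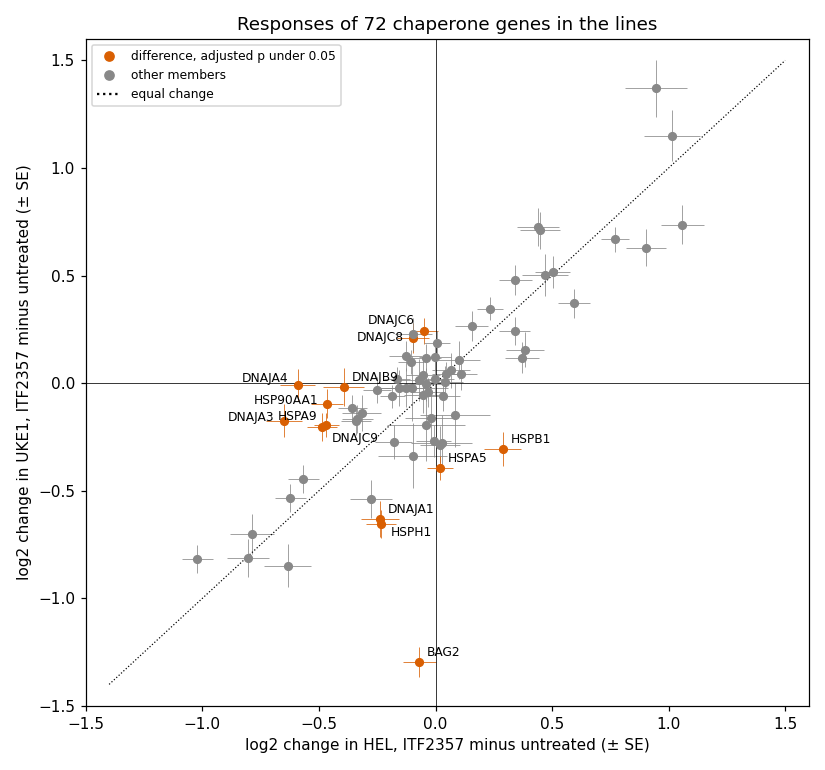
Log2 change with ITF2357 in UKE1 (y axis) against that in HEL (x axis) for the 72 members, bars ± SE of the fit, orange and named where the difference between the lines had an adjusted p under 0.05; the dotted line marks equal change. Most members lie near the line, and BAG2 lies farthest from it, at -0.07 in HEL and -1.30 in UKE1.

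**Figure D4:**
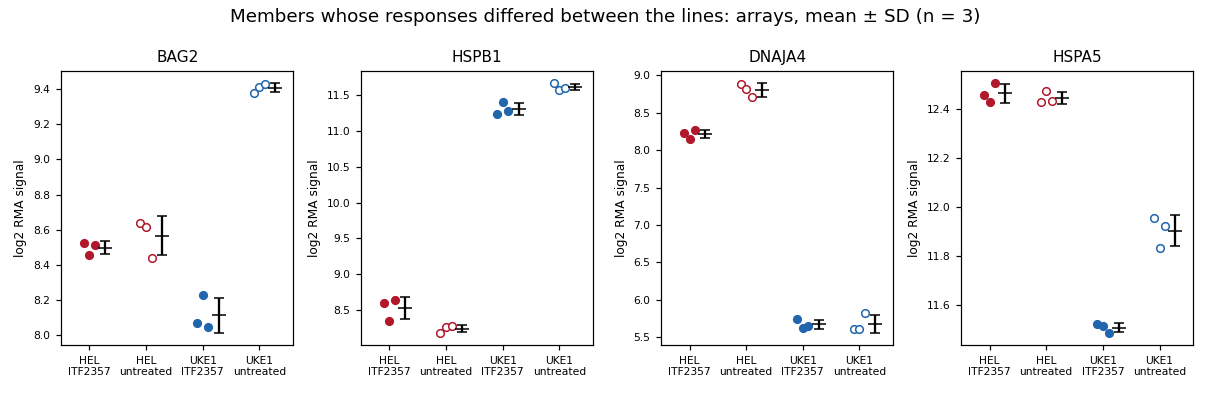
Log2 RMA signal (y axis) on each of the 3 arrays of a group (points, filled for ITF2357) with the mean ± SD, for 4 members whose responses differed between HEL (red) and UKE1 (blue); y axes differ and do not start at 0. BAG2 and HSPA5 are lower on all treated UKE1 arrays and overlap in HEL, and DNAJA4 is lower on all treated HEL arrays and overlaps in UKE1.

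The untreated lines differed in the levels of most members. Untreated UKE1 was higher for 17 members (against 33.3% of all genes) and lower for 33 (against 34.4%), and 22 did not pass, a share called of 69.4%, against 67.7% of all genes. The arrays did not overlap for 56 members (77.8%, against 69.4% of all genes). DNAJC15, a J protein of the inner mitochondrial membrane, read 3.30, 3.14 and 2.89 in untreated UKE1, against 9.07, 9.09 and 9.06 in untreated HEL. DNAJC15 was lower in UKE1 (adjusted p = 1.2e-15). The UKE1 arrays lay under log2 6, so no fold is given. Its drug change of 0.10 in HEL did not pass. HSPB1 differed in the opposite direction, at 11.67, 11.58 and 11.60 in untreated UKE1, against 8.18, 8.26 and 8.27 in untreated HEL, a difference of 3.38 (10.4-fold higher, adjusted p = 7.91e-14).

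Other members that were lower in untreated UKE1 by at least 1 on the log2 scale came from several classes. DNAJA4 averaged 5.68 ± 0.120 in untreated UKE1 and 8.81 ± 0.0897 in untreated HEL (SD, n = 3 each). Auxilin, DNAJC6, averaged 7.45 ± 0.0784 in untreated UKE1 and 10.08 ± 0.0370 in untreated HEL, a difference of -2.63. DNAJB9 averaged 5.68 ± 0.0683 in untreated UKE1 and 7.78 ± 0.129 in untreated HEL. HSPA4L averaged 5.25 ± 0.202 in untreated UKE1 and 7.24 ± 0.165 in untreated HEL, and DNAJC28 5.03 ± 0.235 in untreated UKE1 and 6.68 ± 0.219 in untreated HEL. For DNAJA4, DNAJB9, HSPA4L and DNAJC28 the UKE1 mean lay under log2 6, so the size of the difference is not read. DNAJB6 differed by -1.44, DNAJC14 by -1.26 and HSPA13 by -1.18. DNAJC1 was higher in untreated UKE1, by 1.13 (adjusted p = 5.19e-10). Among the genes that rose with the drug in both lines, DNAJC28 and HSPA4L were lower in untreated UKE1. DNAJB4 and BAG3 differed by 0.05 and -0.08 between the untreated lines and did not pass (adjusted p = 0.642 and 0.431). BAG2, at 9.41 ± 0.0256 in untreated UKE1 and 8.56 ± 0.111 in untreated HEL, was higher in UKE1 by 0.84 before the drug. With the drug it averaged 8.11 ± 0.0992 in UKE1 and 8.50 ± 0.0369 in HEL. HSP90AA1 and HSP90AB1 did not pass between the untreated lines (0.03, interval -0.11 to 0.18, and -0.08, interval -0.20 to 0.04), and HSP90B1 was lower in UKE1 by 0.61 on the log2 scale.

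**Figure D5:**
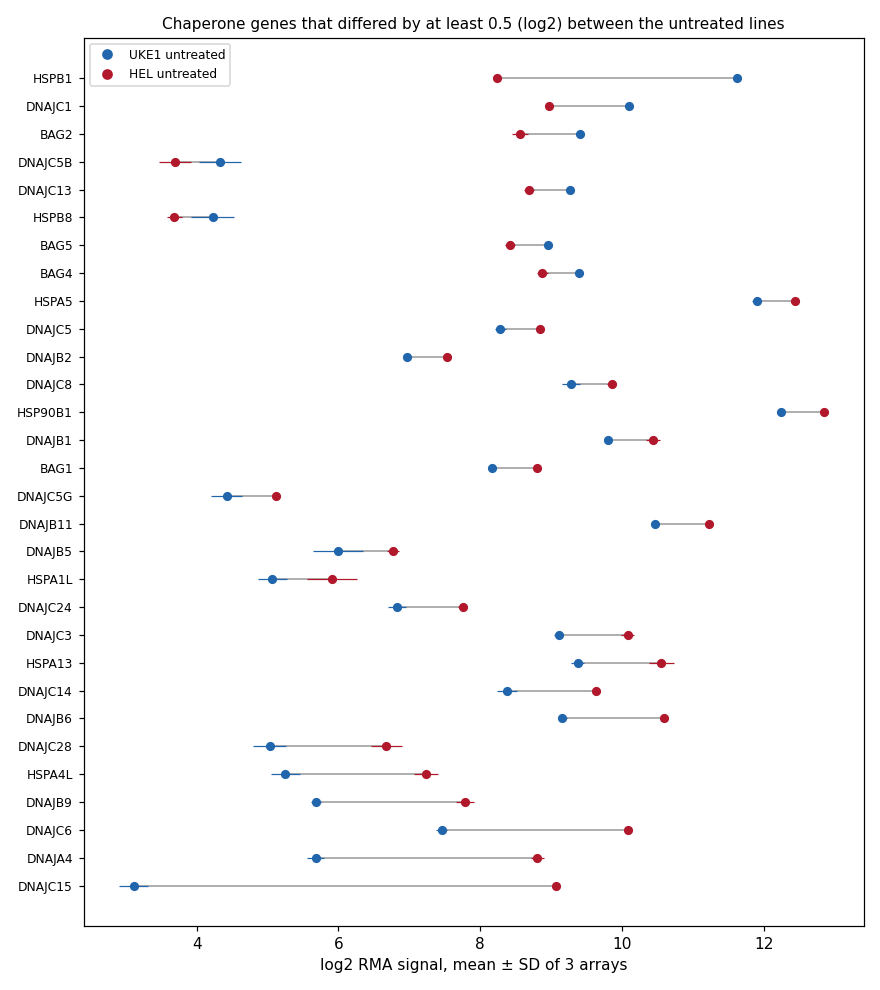
Mean log2 RMA signal ± SD of 3 arrays (x axis) in untreated UKE1 (blue) and untreated HEL (red) for the 30 members (y axis) that were called between the lines and differed by at least 0.5. In 8 of them UKE1 is higher, with HSPB1 showing the widest gap, and in the others HEL is higher, with DNAJC15 at the far end.

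Genes that work with the members were read from 5 lists, whose members are not part of the rule. Of 4 heat shock factors and regulators measured, 0 rose and 1 fell in each line (medians -0.14 in HEL and -0.08 in UKE1). Over all genes, 22.6% rose and 19.9% fell in HEL and 22.0% rose and 22.3% fell in UKE1, and the counts of the 5 lists are to be read against these shares. HSF1 averaged 9.14 ± 0.118 in treated and 9.26 ± 0.0780 in untreated HEL, and 8.79 ± 0.0257 in treated and 8.94 ± 0.0539 in untreated UKE1 (SD, n = 3 each), with changes of -0.13 and -0.15 that did not pass (adjusted p = 0.174 and 0.106). The gene that fell was HSF2BP, a germ cell protein named for its binding of HSF2. Its change was -0.63 in HEL (adjusted p = 5.15e-05). In UKE1 it was -0.25 (adjusted p = 0.0348), which was lost without any 1 of 5 UKE1 arrays, all but treated replicate 1 (adjusted p = 0.0560 to 0.152) and with every row tested. HSF2 was not analysed here.

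Of 14 HSP90 cochaperones measured, 2 rose and 5 fell in HEL (median -0.03) and 3 rose and 2 fell in UKE1 (median -0.07). The share called was 50% in HEL, against 42.4% of all genes, and 35.7% in UKE1, against 44.3%. CDC37, which loads kinases onto HSP90, rose by 0.54 in HEL and 0.33 in UKE1 (adjusted p = 1.01e-05 and 0.000717). UNC45A, a myosin chaperone, rose by 0.61 and 0.41 (adjusted p = 1.82e-06 and 7.14e-05). The phosphatase PPP5C fell by 0.42 and 0.79 (adjusted p = 0.000417 and 1.33e-06). TRAP1, the mitochondrial HSP90 relative, fell by 0.32 and 0.34 (adjusted p = 0.000842 and 0.000490), and with the mean of all its rows both calls were lost (adjusted p = 0.301 and 0.180).

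Of 12 HSP70 exchange factors and partners, 3 rose and 4 fell in HEL (median -0.02) and 2 rose and 3 fell in UKE1 (median -0.03). The share called was 58.3% in HEL, against 42.4% of all genes, and 41.7% in UKE1, against 44.3%. SGTB, a cochaperone with tetratricopeptide repeats, read 8.29, 8.42 and 8.28 in treated HEL, against 6.50, 6.12 and 6.24 in untreated HEL, and rose by 2.04 (SE 0.0870, 4.12-fold, adjusted p = 1.83e-09). In UKE1 it rose by 1.30 (adjusted p = 4.27e-08). The ligase STUB1, the target of BAG2, rose by 0.48 in HEL and 0.53 in UKE1 (adjusted p = 0.000124 and 5.03e-05). CLPB, a mitochondrial disaggregase, fell by 1.10 in HEL and 0.36 in UKE1 (adjusted p = 2.26e-07 and 0.00370). GRPEL1, the exchange factor of HSPA9, fell by 0.40 in HEL (adjusted p = 0.000396) and changed by -0.10 in UKE1 (adjusted p = 0.321).

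The cytosolic chaperonin (CCT) folds actin and tubulin, which prefoldin delivers to it. Of 15 such genes measured, 0 rose and 9 fell in HEL, with a median of -0.30, against -0.01 over all genes. Among these 15, 1 rose and 7 fell in UKE1, with a median of -0.18, against 0.01. CCT5 read 10.64, 10.68 and 10.61 in treated HEL, against 11.33, 11.23 and 11.26 in untreated HEL, and 10.37, 10.36 and 10.27 in treated UKE1, against 11.02, 11.01 and 11.02 in untreated UKE1. It fell by 0.64 in HEL and 0.68 in UKE1 (SE 0.0562 each, adjusted p = 5.9e-07 and 2.76e-07). CCT6A fell by 0.46 and 0.37, and the prefoldin subunit VBP1 by 0.34 and 0.84.

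Of 12 HSP90 clients measured, 2 rose and 3 fell in HEL (median -0.05) and 1 rose and 7 fell in UKE1 (median -0.25). The share called was 41.7% in HEL, against 42.4% of all genes, and 66.7% in UKE1, against 44.3%. JAK2, the kinase mutated in both lines, lay at 7.97 to 8.03 in treated UKE1, against 8.60, 8.60 and 8.49 in untreated UKE1, and fell by 0.57 (SE 0.0691, adjusted p = 1.14e-05). In HEL it read 10.71, 10.87 and 10.62 with drug and 10.60, 10.66 and 10.63 without, where the groups overlapped (change 0.10, adjusted p = 0.263). JAK1 rose by 0.30 in HEL and 0.66 in UKE1 (adjusted p = 0.00182 and 1.45e-06). The cell cycle kinase WEE1 fell by 0.62 and 0.78, and CDK4 by 0.57 and 0.42 (largest adjusted p 6.78e-05). These are transcript levels, and no protein was measured.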

How the data were processed

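Expression was read on Affymetrix Gene ST arrays from total RNA, 3 arrays for each of 4 groups. The authors made the deposited log2 values with RMA in Affymetrix Expression Console, per the submitters' processing notes, with no version named in the sources used here. The log base was not stated, and values were taken as log2 signals from their range of 1.26 to 14.36, with array medians of 6.41 to 6.50. RMA makes the distributions of the arrays alike, so a change shared by most genes would not be seen.

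Of 33297 rows, 19460 had 1 gene symbol in GEO's platform annotation. The row with the highest mean stood for each of 18417 genes. Rows shared by several symbols stayed out, which leaves HSPA1A and HSPA1B out of the members. Groups came from the labels. One mean per group was fitted to all 12 arrays with limma 3.58.1 in R 4.3.3 (lmFit and eBayes, 8 residual degrees of freedom). P-values are two-sided, adjusted over all genes by Benjamini-Hochberg, and called under 0.05. Errors are SE of the fit or SD over arrays. The script was tested on simulated data. Promoter windows came from RefSeq (GRCh38.p14).

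Members and lists were chosen with earlier results of these data known. Named genes were the members called with a change of at least 0.5 (between untreated lines, 1), a fixed set of main chaperones and cochaperones, and up to 4 genes of each partner list; further members are named to account for all of them. Alternatives changed the scaling, the filter on dim genes, the row chosen, the rows tested, the variance prior, the array weights, the arrays fitted and the replicate block, and left out each array in turn.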

Additional observations from a re-analysis of the deposited data

Results flagged for a closer look

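The ITF2357 response differed between the lines (UKE1 change minus HEL change, an interaction contrast in limma) for 13 members (18.1%, against 23.9% of all genes). It also differed for 10 of the partner genes chosen for naming, and for further partner genes given below. Most of those chosen had a small adjusted p in a drug contrast, so the 10 are not a share of the lists. Over the full lists the share was 25% of 4 heat shock factors and regulators and 14.3% of 14 HSP90 cochaperones. It was 25% of 12 HSP70 partners, 20% of 15 chaperonin and prefoldin genes and 41.7% of 12 HSP90 clients, against 23.9% of all genes. Of the members, BAG2 (-1.23), HSPB1 (-0.59), HSPH1 (-0.42), HSPA5 (-0.41) and DNAJA1 (-0.39) were lower in UKE1 by these log2 differences. DNAJA4 (0.58), DNAJA3 (0.48), DNAJB9 (0.37), HSP90AA1 (0.37), DNAJC8 (0.31), DNAJC6 (0.29), DNAJC9 (0.28) and HSPA9 (0.27) were higher. HSPB1 is the one whose called changes point in opposite directions.

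Of the partner genes chosen for naming, SGTB (-0.74), JAK2 (-0.67), VBP1 (-0.50), PPP5C (-0.37) and the checkpoint kinase CHEK1 (-0.26) were lower in UKE1. CLPB (0.74), HSF2BP (0.38), JAK1 (0.36), GRPEL1 (0.31) and the prefoldin subunit PFDN1 (0.26) were higher. The adjusted p of these genes lay between 0.000247 for JAK2 and 0.0490 for CHEK1. The CHEK1, GRPEL1, HSF2BP and PFDN1 calls were lost without any 1 of 9 to 11 of the 12 arrays, and the PPP5C call without any 1 of 5. With every row of the table tested all 5 of these calls were lost, and with median centring those of GRPEL1, HSF2BP and PFDN1. Partner genes outside that choice also passed. KIT (-0.45), NR3C1 (-0.26) and TOMM34 (-0.25) were lower in UKE1 (adjusted p = 0.00526, 0.0351 and 0.0399), and PFDN4 (0.40) was higher (adjusted p = 0.0433). The other settings were not run for KIT, NR3C1, TOMM34 and PFDN4. In UKE1, DNAJA4 and DNAJB9 lay under log2 6 with and without the drug.

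A signal outside the comparisons above came from rows that the inducible HSP70 genes HSPA1A and HSPA1B share. With every row of the table tested, their brightest shared row rose by 0.73 in HEL (adjusted p = 5.07e-05) and by 1.04 in UKE1 (adjusted p = 3.70e-06).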

How the results depend on the processing

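Over 23 settings, 33 of the 38 HEL calls, 28 of the 36 UKE1 calls, 7 of the 13 calls for the difference between the lines and 43 of the 50 between the untreated lines were made in each setting that tested them, and no called value of a member or named partner gene changed sign. Leaving out 1 array gave 35 to 39 members called in HEL, 32 to 38 in UKE1, 9 to 14 for the difference (4 to 9 positive, 4 to 7 negative) and 47 to 52 between the untreated lines. The difference was the count that moved most: 21 members were called with an intensity trend in the variance prior (13 positive, 8 negative), 3 positive and 8 negative with median centring, and 5 positive with every row of the table tested, which adjusts over more rows. With quantile normalization the split was 9 positive and 5 negative. Same-numbered arrays deviated from their group means with correlations of -0.09 to 0.12, so the numbers do not pair the samples. The replicate block gave 38 members in HEL, 36 in UKE1, 12 for the difference and 50 between the untreated lines; it ended the difference calls of DNAJB9, DNAJC8, GRPEL1, HSF2BP and PFDN1 and the UKE1 call of HSF2BP, and added a difference call for HSPA13. The cause of these shifts was not tested. Low signals limit the precision: 13 members lay under log2 6 in every group.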

Other observations

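HSPA1A and HSPA1B, the main inducible HSP70 genes, had 5 rows on the array, all shared by both symbols and 1 pair of them identical, so that the genes cannot be told apart. The brightest row read 10.66, 10.54 and 10.83 in treated HEL, against 9.94, 9.94 and 9.97 in untreated HEL. It read 10.47, 10.57 and 10.48 in treated UKE1, against 9.58, 9.33 and 9.50 in untreated UKE1, and no treated array of a line overlapped an untreated one. Over the 5 rows, the rise was 1.66- to 1.74-fold in HEL (largest adjusted p 5.17e-05) and 1.94- to 2.05-fold in UKE1 (largest adjusted p 4.91e-06), in a limma fit over all 33297 rows. The difference between the lines did not pass for any of the 5 rows (adjusted p = 0.125 to 0.447).

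DNAJC25, a J protein whose row is shared with a readthrough transcript, read 8.25, 8.08 and 8.09 in treated HEL, against 8.43, 8.40 and 8.42 in untreated HEL. In that fit the row fell by 0.28 in HEL (adjusted p = 0.0114) and changed by -0.06 in UKE1 (adjusted p = 0.589). The row shared by HSPA6 and its neighbour HSPA7 changed by 0.41 in HEL (adjusted p = 0.0535) and 0.09 in UKE1 (adjusted p = 0.707), and neither passed.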
